A study of Rattus norvegicus with 12 samples.

Results

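Cyclins are the regulatory subunits of the cyclin-dependent kinases (CDKs), and 10 genes that encode cyclins and CDKs were followed in the pituitary of DES-treated rats. Every probe set whose platform gene symbol was *Ccnd1*, *Ccnd2*, *Ccnd3*, *Cdk4*, *Ccne1*, *Cdk2*, *Ccna2*, *Ccnb1*, *Ccnb2* or *Cdk1* was taken, whatever its values, which gave 14 of 31099 probe sets and 10 of 14218 genes. Of these, 9 probe sets belong to genes that act in G1 and at entry into S phase (the D cyclins with *Cdk4*, and *Ccne1* with *Cdk2*), and 5 belong to genes that act from S phase to mitosis, called G2/M members here (*Ccna2*, *Ccnb1*, *Ccnb2* and *Cdk1*). The D cyclins are induced by mitogens, bind CDK4 and its relatives, and with cyclin E and CDK2 phosphorylate the retinoblastoma protein, which releases E2F factors. Cyclin A2 and the B cyclins bind CDK1, accumulate towards mitosis and are destroyed by ubiquitin-dependent proteolysis before the cell divides, and their transcripts are most abundant in cycling cells. In the rat pituitary, estrogens induce proliferation of lactotrophs, the prolactin-secreting cells.

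RNA from the anterior pituitary of males was measured on 12 arrays, 3 for each of 4 congenic rat lines. The lines have the ACI background with COP alleles in the interval of an *Ept* locus, which is on chromosome 6 (Ept1), 3 (both Ept2 and Ept6) or 10 (Ept9). All 4 groups received the synthetic estrogen diethylstilbestrol (DES) as a 5 mg subcutaneous implant from 9 to 21 weeks of age (12 weeks) and BrdU, a label of DNA synthesis, at 50 mg/kg 4 h before the end. No sham-treated array and no ACI or COP array was analysed here, so each line was compared with the mean of the other 3 and with each of them. Where the introgressed segments end is not stated by the sources used here. The annotation places none of the 10 members on chromosome 3, 6 or 10. The labels conflict on replication, giving 3 biological replicates in one place and 3 males in fewer independent replicates in another, so the p-values may measure a spread that is partly technical.

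Signals are linear intensity values that the authors scaled to a common trimmed mean of 500.18 to 500.193, and arrays correlated at 0.958 to 0.970. Prolactin, the lactotroph hormone, lay between 41979 and 51767 on all arrays, while all 4 posterior lobe markers were under the filter on low values (summed signal 57.7 to 266), so the arrays carried the lactotroph marker of the labelled tissue and little of the posterior lobe. *Pomc*, the hormone gene of corticotrophs, was also under the filter (10.6 to 152), and *Tbx19*, a corticotroph transcription factor, lay at 68.5 to 205. The 3' minus 5' difference of the Gapdh control probe sets, a measure of RNA integrity on the log2 scale, was 0.25 ± 0.01 in Ept1, 0.38 ± 0.06 in Ept2, 0.14 ± 0.06 in Ept6 and 0.21 ± 0.06 in Ept9 (SD, n = 3), and all Ept2 arrays lay above the other 9. Several marker groups of other pituitary cells were also highest in Ept2, although none of the markers fixed for any cell type was called by the F test among lines. The summed signal of the 5 folliculostellate and stem cell markers was 1947 to 2568 in Ept2, against 1647 to 1797 in Ept1, 1206 to 1570 in Ept6 and 1622 to 1780.0 in Ept9. In bulk tissue, fewer cells of a type and less RNA per cell cannot be told apart.

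The promoters of *Ccnb1*, *Ccnb2* and *Cdk1* are shown first because all of these G2/M members hold the letters CCAAT. No window was available for *Ccna2*, the remaining G2/M member. RefSeq's promoter table for the GRCr8 build holds windows from 250 bases before to 50 bases after the transcription start, with 7 of the 10 members among its 33469 promoters (*Ccnd3*, *Cdk4*, *Ccne1*, *Cdk2*, *Ccnb1*, *Ccnb2* and *Cdk1*). The following lines give the 250 bases before the start of *Ccnb1* (chr2:33655226-33655475, minus strand), *Ccnb2* (chr8:79981659-79981908, minus strand) and *Cdk1* (chr20:19265043-19265292, plus strand), and of the G1 kinase *Cdk4* (chr7:64771203-64771452, plus strand) for contrast. Capitals mark CCAAT, the letters of the NF-Y box (ATTGG where it lies on the other strand), and TTTGAA, the letters of the cell cycle genes homology region (CHR).
Ccnb1: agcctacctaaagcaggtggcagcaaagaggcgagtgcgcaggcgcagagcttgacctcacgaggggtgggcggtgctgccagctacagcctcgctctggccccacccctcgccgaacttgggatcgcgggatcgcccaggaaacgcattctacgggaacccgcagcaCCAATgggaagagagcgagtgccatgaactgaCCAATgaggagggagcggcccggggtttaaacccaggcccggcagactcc
Ccnb2: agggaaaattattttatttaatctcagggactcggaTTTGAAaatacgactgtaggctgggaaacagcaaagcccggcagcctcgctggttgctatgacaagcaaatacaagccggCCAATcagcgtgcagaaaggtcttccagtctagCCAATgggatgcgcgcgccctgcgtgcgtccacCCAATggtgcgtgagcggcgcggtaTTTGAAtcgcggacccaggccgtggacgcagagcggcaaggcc
Cdk1: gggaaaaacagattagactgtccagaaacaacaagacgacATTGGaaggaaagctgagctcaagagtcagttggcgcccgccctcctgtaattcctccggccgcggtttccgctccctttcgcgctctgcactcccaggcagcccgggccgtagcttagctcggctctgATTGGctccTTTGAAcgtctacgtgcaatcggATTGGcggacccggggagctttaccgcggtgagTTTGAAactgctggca
Cdk4: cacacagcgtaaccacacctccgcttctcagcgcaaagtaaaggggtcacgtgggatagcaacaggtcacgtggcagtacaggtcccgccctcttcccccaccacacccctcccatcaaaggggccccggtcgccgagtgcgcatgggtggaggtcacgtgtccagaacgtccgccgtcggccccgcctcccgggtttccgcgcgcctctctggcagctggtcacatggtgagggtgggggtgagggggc
The letters were searched on both strands of the whole windows. CCAAT was found 2 times in *Ccnb1*, 3 times in *Ccnb2* and 3 times in *Cdk1*, whereas 11.2% of all promoters held it 2 or more times and 37.5% held it at all. Neighbouring copies lay 32 bases apart in *Ccnb1*, 33 and 33 bases apart in *Ccnb2*, and 129 and 32 bases apart in *Cdk1*. *Ccnb2* and *Cdk1* each held TTTGAA 2 times, beside CCAAT, and 7.41% of all promoters held both. TTTGAA was not found in *Ccnb1*. Among the G1 members, *Ccnd3* and *Cdk2* each held CCAAT 1 time, and *Cdk4* and *Ccne1* did not hold it. GCGGGAA, an E2F-type letter run, was in *Cdk2* only among the 7 (4.21% of all promoters), and GGGCGG, the GC box, which can overlap GCGGGAA, was in all but *Ccnb2* (33.1% of all promoters). A match of letters is a description and not evidence that a factor binds there.

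**Figure D1:**
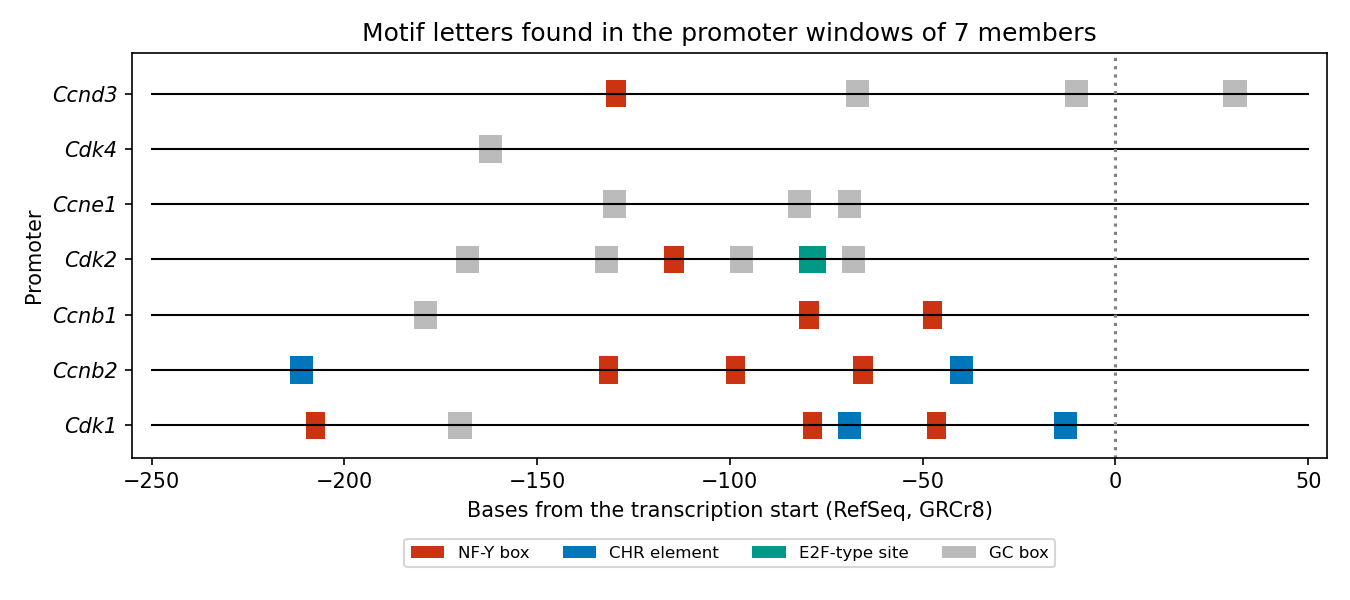
Positions of 4 letter runs in the promoter windows of the 7 members in the promoter table (x axis: bases from the transcription start; each line is a promoter, each block a match on either strand). The 2 to 3 NF-Y boxes of *Ccnb1*, *Ccnb2* and *Cdk1* lie upstream of the start, with a spacing of 32 or 33 bases in each of them, and *Cdk4* and *Ccne1* have none.

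Among the 4 lines, 1 of the 10 genes differed beyond the spread between arrays, and it was *Ccnd2*, the gene of cyclin D2. Of the 14 member probe sets, 13 passed the filter on low values (mean signal of at least 69.7). In limma's F test 1 of these 13 was called at an adjusted p under 0.05, where 0.989% of all 18607 tested probe sets were called, and at an unadjusted p under 0.05 the count was also 1 of 13 (7.69%, against 14.1% of all). Against the other 3 lines, limma called 0 members in Ept1 (0.193% of all probe sets), 1 in Ept2 (0.774% of all), 1 in Ept6 (0.161% of all) and 0 in Ept9 (0.666% of all). At an unadjusted p under 0.05 the members numbered 1, 3, 1 and 3 in Ept1, Ept2, Ept6 and Ept9, where 1396, 2684, 1984 and 2047 of all 18607 probe sets passed. These contrasts share arrays, so a change in 1 line also moves the others. Among pairs of lines, 1 member was called between Ept2 and Ept6 (0.629% of all probe sets). None was called between Ept1 and Ept2 (0.102% of all; 0 at an unadjusted p under 0.05), Ept1 and Ept6 (0.204%; 1), Ept1 and Ept9 (0.494%; 1), Ept2 and Ept9 (0.833%; 7) or Ept6 and Ept9 (0.124%; 2), by limma in each case. In 2 of the 13 member probe sets, for *Ccnd2* and *Ccnb1*, the 3 arrays of 1 line lay all above the other 9, where 8.97% of all probe sets had 3 arrays of a line all above or all below the rest.

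**Figure D2:**
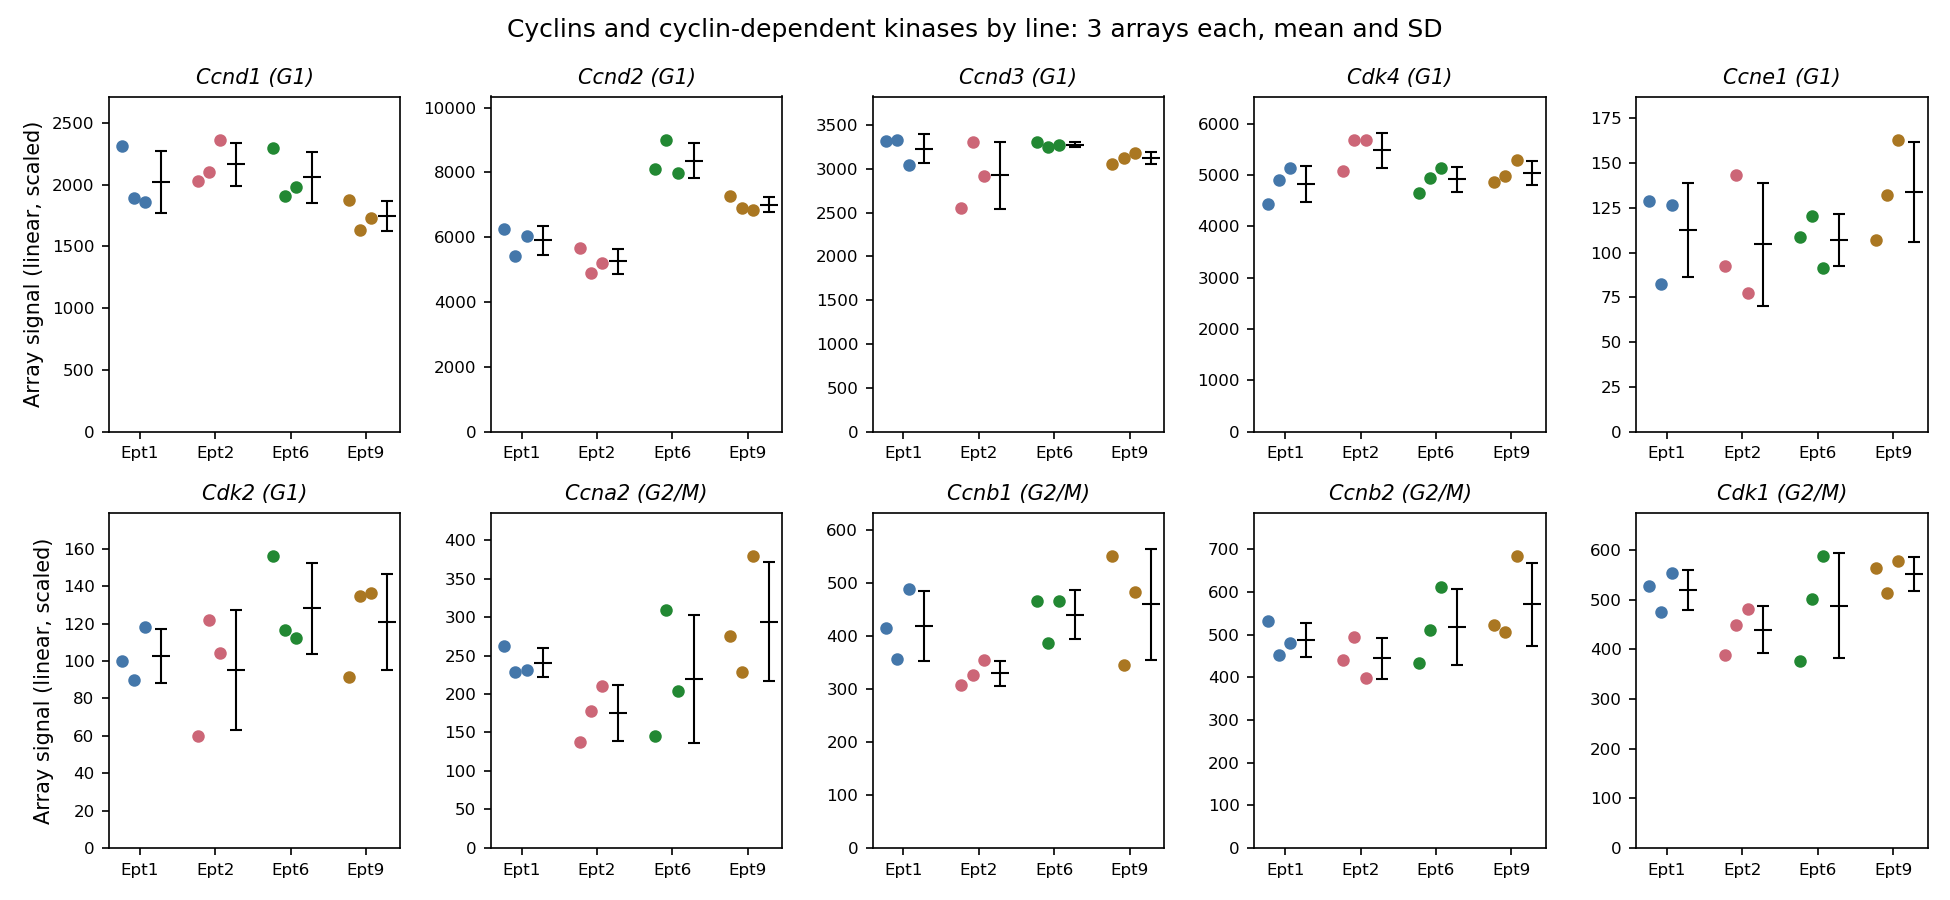
Signal of each member (brightest probe set) on each array by line (points; linear scaled signal, axis from 0), with the mean and SD of 3 arrays as the bar to the right. In *Ccnd2* the 3 Ept6 arrays lie above the other 9, and in no other panel do the 3 arrays of a line lie apart from all others.

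Cyclin D2 transcripts were most abundant in Ept6 and least abundant in Ept2. *Ccnd2* gave signals of 6269, 5415 and 6030.5 in Ept1, 5661, 4899.6 and 5218 in Ept2, 8107, 8996 and 7999.5 in Ept6 and 7259, 6915 and 6834 in Ept9. The 3 Ept6 arrays lay above all 9 others, the 3 Ept9 arrays lay above all Ept1 and Ept2 arrays, and the Ept1 and Ept2 arrays overlapped. The line means were 5259.7 ± 382 in Ept2, 5905 ± 441 in Ept1, 7003 ± 226 in Ept9 and 8368 ± 547 in Ept6 (SD, n = 3). Ept2 and Ept6 were therefore the ends of the order. On the log2(signal + 16) scale, Ept2 fell below Ept6 by 0.67 (SE 0.09, 1.59-fold, limma adjusted p = 0.0122). *Ccnd2* was 0.48 (SE 0.07) higher in Ept6 than in the other 3 lines, 1.39-fold, with a limma adjusted p of 0.0468. In Ept2 it was lower than in the other 3 lines, with a log2 difference of -0.42 (SE 0.07, 1.33-fold, limma adjusted p = 0.0385). All 3 tests passed the threshold, and none of the other members passed any. The F test among lines gave an adjusted p of 0.0231 in limma and rank 81 of all probe sets.

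Neighbours in the order of lines did not differ beyond the threshold in *Ccnd2*. Ept1 exceeded Ept2 by 0.17 (95% interval -0.04 to 0.37, limma adjusted p = 0.562), Ept1 minus Ept9 was -0.25 (-0.45 to -0.05, limma adjusted p = 0.371), and Ept6 exceeded Ept9 by 0.25 (0.05 to 0.46, limma adjusted p = 0.401). The steps from Ept1 to Ept6 and from Ept2 to Ept9 had limma adjusted p of 0.0822 and 0.0767. Both lines with a chromosome 3 segment, Ept2 and Ept6, thus lay at opposite ends of the order, and *Ccnd2* itself is on chromosome 4.

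The order of the lines in *Ccnd2* was the inverse of their order in the Gapdh 3' minus 5' difference. With that difference as a covariate the Ept2 minus Ept6 difference of *Ccnd2* was -0.96 (SE 0.19, limma adjusted p = 0.279), larger in size with a larger error, and the F test gave an adjusted p of 0.172. Since all Ept2 arrays lay above the other 9 in the Gapdh difference, line and RNA integrity cannot be told apart by this fit. Over all probe sets the covariate took the calls in Ept2 against the other 3 lines from 144 to 0. Some markers of other cells were higher in Ept2 than in Ept6, and others overlapped. The 2 somatotroph markers summed to 36135 to 40938 in Ept2 and 28070 to 32475 in Ept6, nearly all of it *Gh1*, since *Ghrhr* averaged 157 and 161, the shared alpha subunit *Cga* lay at 34078 to 39233 and 28680 to 30388, and the thyrotroph marker *Tshb* at 7187 to 18692 and 4554 to 6526. The 2 red blood cell markers summed to 18379 to 19690 in Ept2 and 13217 to 14370 in Ept6. The 7 leukocyte markers, in contrast, reached 9752 to 14692 in Ept2 and 11860 to 16012 in Ept6, and the gonadotroph, corticotroph, endothelial and stromal sums overlapped between these lines. None of these markers, nor any of the 5 folliculostellate and stem cell genes, was called by the F test, and their part in the *Ccnd2* result was not tested. Leaving out 1 array at a time kept the Ept2 minus Ept6 call in all 12 cases (limma adjusted p 0.0157 to 0.0484). The F call was lost without Ept2 replicate 3 or any of the Ept6 or Ept9 arrays (limma adjusted p 0.032 to 0.0654 over the 12), the Ept2 call was kept only without Ept1 replicate 2 (0.047 to 0.129) and the Ept6 call only without Ept2 replicate 1 (0.0455 to 0.22). Without the Ept2 arrays, Ept6 exceeded the mean of Ept1 and Ept9 by 0.38 with a limma adjusted p of 0.233.

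**Figure D3:**
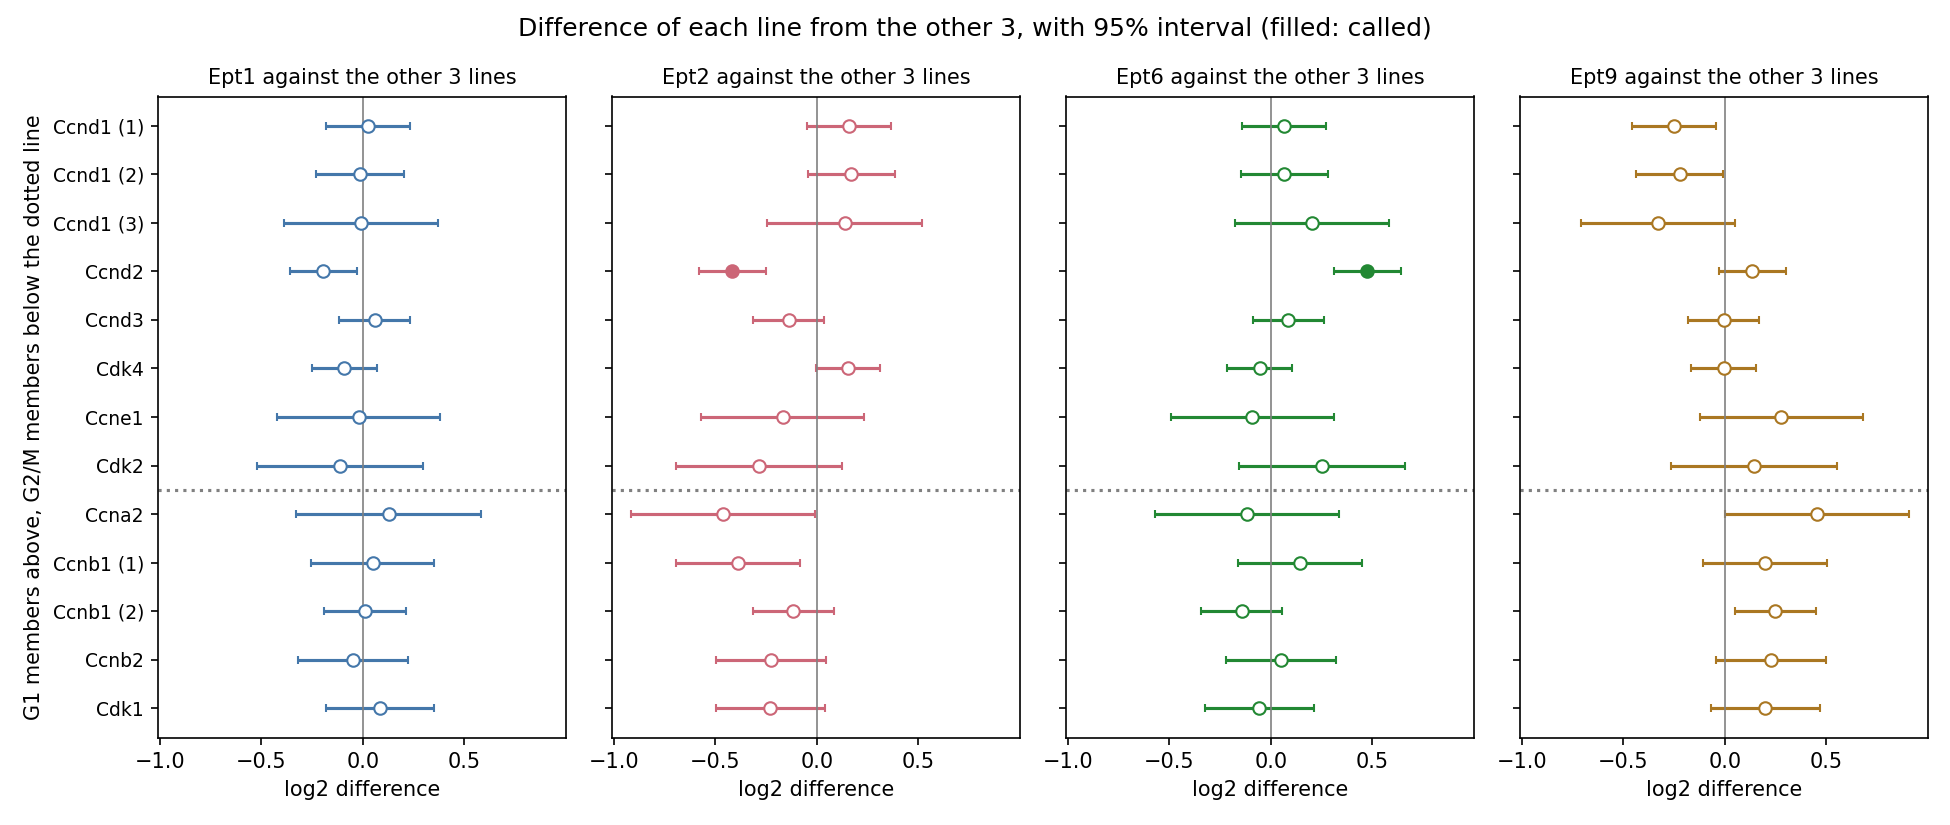
Log2 difference of each line from the mean of the other 3 for the 13 tested member probe sets (points, with 95% intervals; filled points were called; numbers in brackets tell probe sets of a gene apart). *Ccnd2* is the filled point in Ept2 (-0.42) and in Ept6 (0.48), and the 5 G2/M probe sets lie below 0 in Ept2 and above 0 in Ept9.

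Cyclin D1, the other well-known target of mitogens among the D cyclins, was lowest in Ept9 in all 3 of its probe sets, without passing the test. The brightest *Ccnd1* probe set gave 2313, 1892 and 1862 in Ept1, 2026, 2105 and 2359 in Ept2, 2295, 1905 and 1980.1 in Ept6 and 1872, 1633 and 1733 in Ept9. The Ept9 arrays lay below all Ept2 and Ept6 arrays and overlapped with those of Ept1. Its Ept9 difference from the other 3 lines was -0.25 (SE 0.09, limma unadjusted p = 0.0233 and adjusted p = 0.363). The second *Ccnd1* probe set gave 1505, 1186 and 1076 in Ept1, 1352, 1353 and 1402 in Ept2, 1418, 1289.6 and 1194 in Ept6 and 1167, 1101 and 1077 in Ept9, with a difference of -0.22 (SE 0.10, limma adjusted p = 0.436). The dimmest gave 1079, 559 and 636 in Ept1, 843, 686 and 842 in Ept2, 903, 832 and 720.4 in Ept6 and 659, 544 and 648 in Ept9, with a difference of -0.33 (SE 0.17, limma adjusted p = 0.519). Ept1 replicate 1 was the highest or second highest array in each of the 3. Between Ept2 and Ept9 the *Ccnd1* differences were 0.31, 0.29 and 0.35, and limma gave unadjusted p of 0.0227, 0.0324 and 0.127 and adjusted p of 0.310, 0.352 and 0.560.

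*Ccnd3*, the third D cyclin, varied little. Its signals were 3323, 3327 and 3040.2 in Ept1, 2549.5, 3308 and 2919 in Ept2, 3308, 3245 and 3273 in Ept6 and 3053, 3122 and 3186 in Ept9, and 11 of the 12 arrays lay between 2919 and 3327. Ept2 replicate 1 was the lowest array, and the line means lay between 2926 ± 379 in Ept2 and 3275 ± 31.4 in Ept6 (SD, n = 3). The Ept2 minus Ept6 difference was -0.17 (95% interval -0.38 to 0.04, limma adjusted p = 0.438). *Cdk4*, the kinase partner of the D cyclins, gave 4445, 4900.3 and 5133 in Ept1, 5089.5, 5679.8 and 5676 in Ept2, 4651, 4948 and 5145 in Ept6 and 4858, 4974 and 5298 in Ept9. Ept2 replicates 2 and 3 were the highest arrays, and Ept2 replicate 1 lay within the range of the other lines. The Ept2 difference from the other 3 lines was 0.15 (95% interval -0.01 to 0.31, limma adjusted p = 0.365), opposite in sign to that of *Ccnd2*.

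*Ccne1* and *Cdk2*, the cyclin E1 and CDK2 genes of the step into S phase, were dim, and their arrays varied more within lines than between them. *Ccne1* gave 129, 82.4 and 127 in Ept1, 92.7, 143 and 77.7 in Ept2, 109, 120.5 and 91.6 in Ept6 and 107, 132 and 163 in Ept9, with coefficients of variation of 13.6% to 32.9% within lines. Its highest line was Ept9, by 0.28 over the other 3 (95% interval -0.12 to 0.68, limma adjusted p = 0.617). The brighter *Cdk2* probe set gave 99.9, 89.7 and 118 in Ept1, 59.6, 122 and 104 in Ept2, 156, 116 and 112 in Ept6 and 91.2, 135 and 136 in Ept9, with Ept2 replicate 1 lowest and Ept6 replicate 1 highest. Ept2 minus Ept6 was -0.41 in *Cdk2* (95% interval -0.91 to 0.09, limma adjusted p = 0.430). The other *Cdk2* probe set, at 32.0 to 91.9, was below the filter and was not tested.

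Of the 5 G2/M probe sets, 4 had their lowest mean in Ept2 and 5 their highest in Ept9, and none of these differences passed the test. *Ccnb1* enters this count with each of its probe sets, and the share of all probe sets in this order was not computed. Over all 18607 tested probe sets, arrays of 1 line lay apart from the other 9 most often in Ept2 (357 above, 312 below). Ept9 followed (240 and 259), then Ept6 (161 and 199) and Ept1 (116 and 101). Cyclin A2, which acts in S phase and G2, gave *Ccna2* signals of 263, 228 and 231 in Ept1, 138, 178 and 210.2 in Ept2, 145, 309 and 204 in Ept6 and 275, 228 and 379 in Ept9. All 3 Ept2 arrays lay below the Ept1 and Ept9 arrays, while the Ept6 arrays spread over most of the range. The Ept2 minus Ept9 difference in *Ccna2* was -0.69 (SE 0.25, 1.61-fold), with a limma unadjusted p of 0.0203 and adjusted p of 0.300.

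Cyclin B1, the main mitotic partner of CDK1, was measured by a pair of probe sets that ordered the lines differently. The brighter *Ccnb1* probe set gave 416, 356 and 488 in Ept1, 307, 326 and 355 in Ept2, 467, 387 and 467 in Ept6 and 551, 345 and 484 in Ept9. Its 3 Ept2 arrays lay below all Ept1 and Ept6 arrays and overlapped with Ept9 replicate 2. The Ept2 difference from the other 3 lines was -0.39 (SE 0.14, limma unadjusted p = 0.0172, adjusted p = 0.231). The dimmer *Ccnb1* probe set gave 275, 284 and 311 in Ept1, 278, 288 and 246 in Ept2, 308, 232 and 264 in Ept6 and 352, 316 and 323 in Ept9, and here the 3 Ept9 arrays lay above the other 9. Its Ept9 difference was 0.25 (SE 0.09, limma unadjusted p = 0.0194, adjusted p = 0.344), while its Ept2 difference was -0.12 (95% interval -0.32 to 0.08).

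Cyclin B2 and its kinase CDK1 showed the same order of Ept2 and Ept9. *Ccnb2* gave 532, 453 and 481 in Ept1, 441, 494 and 399 in Ept2, 434, 511 and 612 in Ept6 and 524, 506 and 684 in Ept9, with Ept9 replicate 3 highest and Ept2 replicate 3 lowest. Ept2 minus Ept9 was -0.34 in *Ccnb2* (SE 0.15, limma unadjusted p = 0.0443, adjusted p = 0.399). It was -0.21 without Ept9 replicate 3 (limma adjusted p = 0.722) and -0.06 with the Gapdh difference as a covariate (SE 0.25, limma adjusted p = 0.965). *Cdk1* gave 527, 476 and 554 in Ept1, 388, 448 and 482 in Ept2, 376, 501 and 587 in Ept6 and 564, 513 and 578 in Ept9, and the 3 Ept9 arrays lay above the 3 Ept2 arrays. Ept2 minus Ept9 was -0.32 in *Cdk1* (SE 0.15, limma unadjusted p = 0.0533, adjusted p = 0.425). Ept6 replicate 1 was the lowest array in *Cdk1* and Ept6 replicate 3 the highest, so the extremes of this gene lay within 1 line.

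G1 and G2/M members were set against each other by line, and no test of a difference between the classes was made. *Ccnd1* and *Ccnb1* enter these counts with all of their tested probe sets. In Ept2 against the other 3 lines, 5 of 5 G2/M probe sets were below 0 with a median of -0.23, and 4 of 8 G1 probe sets were below 0 with a median of -0.002, where 48.2% of all probe sets were below 0 with a median of 0.008. In Ept9, 5 of 5 G2/M probe sets were above 0 with a median of 0.23. There, 3 of 8 G1 probe sets were above 0 with a median of -0.006. Of all 18607 probe sets, 8609 were above 0 in Ept9, and the median was -0.01. The G2/M probe sets lay on opposite sides of 0 in Ept2 and Ept9, and the G1 probe sets were divided in both. Each line is part of the mean that the other is compared with, so a low Ept2 by itself raises the Ept9 difference. Ept1 and Ept6 gave G2/M medians of 0.05 and -0.06 and G1 medians of -0.02 and 0.08. Between Ept2 and Ept9, 4 of 5 G2/M and 3 of 8 G1 probe sets had an unadjusted limma p under 0.05, as had 2240 of all 18607, and 0 were called after adjustment. These counts describe the members, which are not replicates of a line and share arrays.

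**Figure D4:**
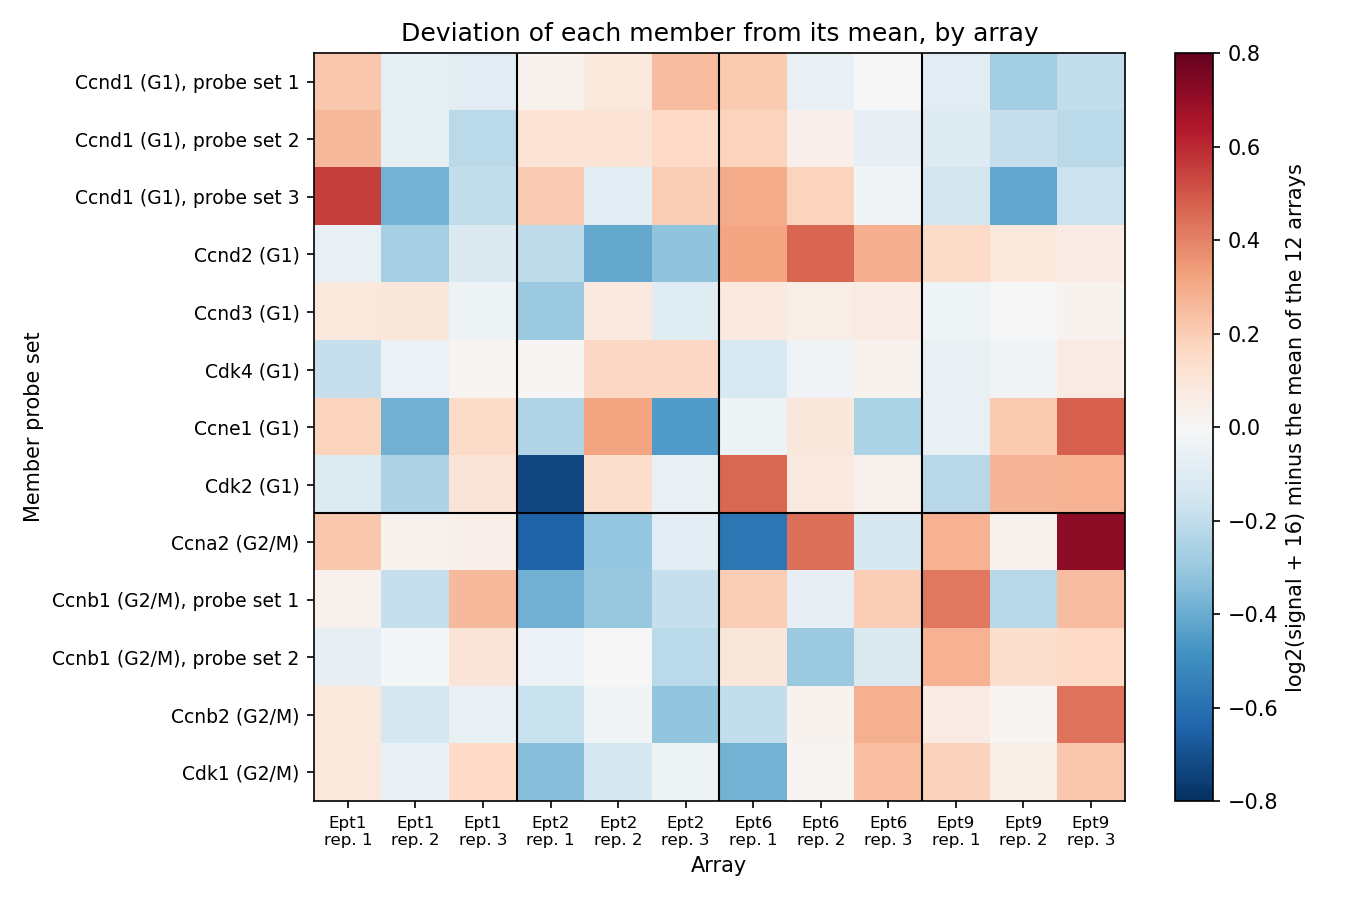
Deviation of each tested member probe set from its mean over the 12 arrays, on the log2(signal + 16) scale (rows: probe sets, G1 above and G2/M below the black line; columns: arrays by line). The G2/M rows are mostly blue in Ept2 and red in Ept9, and *Ccnd2* is red on all 3 Ept6 arrays.

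For each array the median deviation of the 4 G2/M members and of the 6 G1 members from their means over all arrays was taken, with the brightest probe set per gene. The G2/M median was 0.09, -0.10 and 0.10 on the Ept1 arrays, -0.36, -0.22 and -0.14 in Ept2, -0.29, 0.02 and 0.22 in Ept6, and 0.23, 0.02 and 0.34 in Ept9. All Ept2 arrays were below 0 and all Ept9 arrays above 0, while Ept6 spanned nearly the whole range. The G1 median was 0.01, -0.16 and -0.01 in Ept1, -0.22, 0.11 and -0.08 in Ept2, 0.14, 0.07 and 0.03 in Ept6, and -0.06, 0.04 and 0.07 in Ept9. Ept6 was the only line with all 3 arrays above 0 in G1, and the lines overlapped. G2/M minus G1 averaged 0.08 ± 0.03 in Ept1, -0.18 ± 0.14 in Ept2, -0.10 ± 0.31 in Ept6 and 0.18 ± 0.17 in Ept9 (SD, n = 3), and without Ept6 replicate 1 the mean was 0.03 in Ept1 and turned to 0.04 in Ept6. The difference was negative on all 3 Ept2 arrays, positive on all 3 Ept1 arrays and of mixed sign in Ept6 and Ept9.

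**Figure D5:**
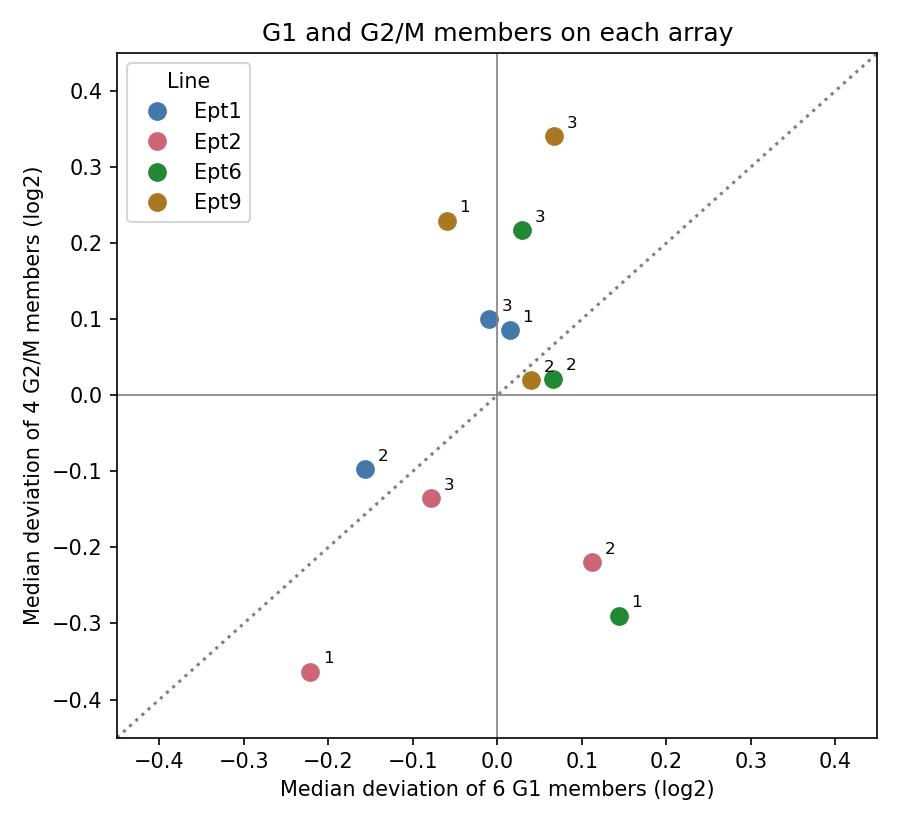
Median deviation of the 6 G1 members (x axis, log2) and of the 4 G2/M members (y axis, log2) on each array, with the replicate number beside each point; the dotted line marks equal deviation. The 3 Ept2 arrays lie below the dotted line (mean difference -0.18 ± 0.14), as do Ept6 replicates 1 and 2 and Ept9 replicate 2. The Ept6 arrays are spread from -0.29 to 0.22 on the y axis.

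Across the 12 arrays the correlations between G2/M members were all above 0, and those between G1 members were of both signs. The 6 pairs of G2/M members had Pearson correlations of 0.44 to 0.79 (median 0.60), and all 6 stayed above 0 after line means were removed (median 0.41, 0.09 to 0.64). The 15 pairs of G1 members had a median of 0.01 (-0.50 to 0.67) and within lines of 0.11 (-0.64 to 0.64), with 8 and 10 of the 15 above 0. The 24 pairs of a G1 with a G2/M member had a median of 0.26 (-0.50 to 0.59). Within lines their median was 0.08 (-0.18 to 0.63), with 17 of the 24 above 0 before and 16 after line means were removed. *Ccnd3* and *Cdk2* reached 0.67 (0.64 within lines), within the range of the G2/M pairs, while *Ccnd1* and *Ccnd2* correlated at -0.23. These correlations describe 12 arrays that share lines and scaling, and no test was made of them or of the difference between the classes. The share of pairs above 0 among all probe sets was not computed, so these counts have no background to be set against.

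The genes whose profiles over the 12 arrays were most like the mean of the G2/M members, among 14481 probe sets compared, were *Nmt1* (r = 0.89, 0.85 within lines), *Bcl3* (0.88, 0.78), *Gatm* (0.87, 0.74), *Twf2* (0.85, 0.88) and *Gars1* (0.85, 0.83). The most like *Ccnd1* were *Slc41a1* (r = 0.88, 0.85 within lines), *Gdpd5* (0.86, 0.74) and *Gatad2a* (0.83, 0.73). *Ccnd2* was followed most closely by *Rhoa* (r = 0.96, 0.65 within lines), *Jun* (0.95, 0.80) and *Ptprs* (0.94, 0.72). *Ccnd3* was followed by *Fam107b* (r = 0.96, 0.97 within lines), *Slc39a6* (0.94, 0.91) and *St3gal4* (0.93, 0.90). No gene was among the most like of more than 1 of these profiles. These are the top of a ranking over 14481 probe sets and are given as a description.

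Genes that restrain or activate the cyclin-dependent kinases gave 0 calls in 4 lists of 10 to 26 probe sets, where 0.989% of all probe sets were called in the F test and 14.1% had an unadjusted p under 0.05. In lists of this size a count of 0 does not stand apart from that share. Of the CDK inhibitors, 7 genes (10 probe sets) were tested and 0 were called in the F test or in any line against the rest (0 at an unadjusted F p under 0.05 in limma). The lowest F p values were those of *Cdkn2a*, which encodes INK4A and ARF (limma adjusted p = 0.384), *Cdkn3* (0.388) and *Cdkn1a*, the p21 gene (0.457). CDKN1 and CDKN2 proteins inhibit by binding the kinases or their cyclin complexes, while *Cdkn3* encodes a phosphatase that acts on them. Pocket proteins with E2F and DP factors gave 0 calls among 12 genes (14 probe sets; 2 at an unadjusted F p under 0.05), led by *E2f5*, a repressive E2F (limma adjusted p = 0.206), *Tfdp2* (0.354) and *Rbl1* (0.476). Other cyclins and CDKs gave 0 calls among 19 genes (26 probe sets; 3 at an unadjusted F p under 0.05), led by *Ccnk* (limma adjusted p = 0.243), *Ccnf* (0.261) and *Ccnc* (0.325). Cyclin K and cyclin C act with transcriptional kinases and cyclin F in a ubiquitin ligase. CDK activators, phosphatases and inhibitory kinases gave 0 calls among 8 genes (10 probe sets; 3 at an unadjusted F p under 0.05), led by the phosphatase gene *Cdc25b* (limma adjusted p = 0.153), *Cks2* (0.245) and the CDK1-inhibiting kinase *Wee1* (0.256).

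Of the genes for cyclin destruction, 15 genes (28 probe sets) were tested and 1 probe set was called in the F test (5 at an unadjusted F p under 0.05). It measures *Ube2s*, an ubiquitin-conjugating enzyme of the anaphase-promoting complex, with signals of 4476, 5109 and 5696 in Ept1, 4367, 5565 and 5986 in Ept2, 7509, 8544 and 7739.7 in Ept6 and 8654, 7293 and 8068 in Ept9 (limma adjusted p = 0.0486). The Ept6 and Ept9 arrays lay above all Ept1 and Ept2 arrays, as in *Ccnd2*. The other *Ube2s* probe set, which was dim, did not separate the lines in this way (limma adjusted p = 0.319), and on leaving out 1 array the call was kept only without Ept2 replicate 1 (limma adjusted p 0.05, rounded, to 0.123 over the 12). The *Ube2s* call was also lost with a pseudocount of 1 (limma adjusted p = 0.0575), with median centring (0.0522), without the filter (0.143), with the replicate block (0.0913) and with the Gapdh covariate (0.261).

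Among proliferation markers, 13 genes (14 probe sets) were tested. *Birc5* and *Bub1*, genes of chromosome segregation in mitosis, were the 2 genes called in a line against the other 3. In the F test *Birc5* was called (limma adjusted p = 0.0319) and *Bub1* was not (0.0967), where 0.989% of all probe sets were called. *Birc5* and *Bub1* were each called down in Ept2, as were 84 of all 18607 probe sets, and *Birc5* was called up in Ept9, as were 78 of all. *Birc5*, which encodes survivin, gave 112, 137 and 118 in Ept1, 66.7, 97.7 and 82.9 in Ept2, 116, 105 and 122 in Ept6 and 227, 164 and 172 in Ept9. All Ept9 arrays lay above and all Ept2 arrays below the other arrays. It was lower in Ept2 than in the other 3 lines (log2 difference -0.65, SE 0.12, limma adjusted p = 0.0398) and 0.75 higher in Ept9 (SE 0.12, limma adjusted p = 0.0255). Ept2 minus Ept9 was -1.05 (SE 0.14, 2.07-fold, limma adjusted p = 0.0107), and this call was kept when any 1 array was left out (0.0138 to 0.0418) but not with the Gapdh covariate. The Ept2 call of *Birc5* was kept only without Ept2 replicate 2 (limma adjusted p 0.0415 to 0.128 over the 12), and the Ept9 call was lost without Ept1 replicate 1 or 3, Ept6 replicate 1 or any Ept9 array (0.0217 to 0.120). *Birc5* lies on chromosome 10, the chromosome of the Ept9 segment, but whether it lies within the segment is not stated by the sources used here. *Top2a* and *Aurkb* are on chromosome 10 too and were not called in Ept9 (limma adjusted p = 0.602 and 0.648, and 0.932).

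*Bub1*, a spindle checkpoint kinase, gave 224, 185 and 243 in Ept1, 103, 98.7 and 115 in Ept2, 171, 183 and 165 in Ept6 and 248, 139.6 and 162 in Ept9, and all Ept2 arrays lay below the other 9. Its Ept2 difference was -0.75 (SE 0.14, 1.68-fold, limma adjusted p = 0.0453), a call kept only without Ept9 replicate 1 or 2 (0.0258 to 0.133 over the 12). *Bub1* lies on chromosome 3, the chromosome of the Ept2 and Ept6 segments, but its Ept6 difference was 0.10 (limma adjusted p = 0.834). The markers *Bub1b*, *Pcna* and *Aurka* are on chromosome 3 too and were not called in Ept2 (limma adjusted p = 0.338, 0.993 and 0.613). With the Gapdh difference as a covariate none of the 4 contrast calls of *Birc5* and *Bub1* was kept, nor was the F call of *Birc5* (limma adjusted p = 0.163). The differences stayed about as large or grew and their errors grew, but this fit cannot tell line and RNA integrity apart. *Birc5* was then -0.63 in Ept2 (SE 0.26, limma adjusted p = 0.551), 0.74 in Ept9 (SE 0.14, 0.0717) and -1.03 between Ept2 and Ept9 (SE 0.27, 0.289), and *Bub1* was -1.34 in Ept2 (SE 0.23, 0.197). Without the filter limma gave adjusted p of 0.12, 0.0858 and 0.13 for *Birc5* in Ept2, *Birc5* in Ept9 and *Bub1* in Ept2, and with the replicate block 0.0917, 0.0725 and 0.0723. The *Birc5* call in Ept2 was also lost with the eBayes trend (0.0687) and the *Bub1* call with array weights (0.0863). These genes are dim: neither passed the filter at the 60th percentile, so they were not tested with it. In Ept2 the *Birc5* signals (66.7 to 97.7) lay near the main filter of 69.7. *Mki67*, the Ki-67 gene, was 476 to 529.9 in Ept2 and 537 to 682 elsewhere, and its Ept2 arrays lay below the other 9 (log2 difference -0.29, SE 0.09, limma adjusted p = 0.164). The Ept2 differences of the *Top2a* probe sets were -0.29 and -0.36 (log2, limma adjusted p = 0.378 and 0.437), and *Pcna* differed by -0.002 (95% interval -0.17 to 0.16).

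The proliferation markers differed in how they followed the G2/M cyclins and *Cdk1* over the 12 arrays. The correlation with the G2/M mean was 0.82 and 0.52 for the *Top2a* probe sets, 0.72 for *Birc5* and 0.64 for *Bub1*. It was 0.56 for *Mki67*, 0.53 for *Bub1b* and 0.52 for *Pcna*. *Foxm1*, a transcription factor of G2/M genes, was at 0.17, *Plk1* at 0.003 and *Aurka*, a mitotic kinase, at -0.26. The remaining markers were also low, with *Mcm6* at 0.18, *Mcm2* at 0.08, *Aurkb* at 0.006 and *Tyms* at -0.22. Ranked among all tested probe sets, the *Top2a* values lay at percentiles 99.9 and 94.6 and *Pcna* at 94.6. *Foxm1* lay at 70.1, *Plk1* at 53.4 and *Aurka* at 24.9. Why the markers differed was not tested.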

How the data were processed

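The deposited table holds linear intensity values (signals) per probe set, which the authors scaled to a common trimmed mean; the software and the background correction behind them are not stated by the sources used here. From these intensity values log2(signal + 16) was computed, 57 controls were removed, and a filter on the mean signal at its 40th percentile (69.7) removed 12435 dim probe sets and kept 18607. Fold changes on this scale understate the change of dim genes. For arrays, the number of arrays (3 per line) limits the precision.

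Tests used limma 3.58.1 in R 4.3.3 on all 12 arrays in 1 fit, with a moderated F test among lines, each line against the mean of the other 3, and the 6 pairs of lines. P-values were adjusted by the Benjamini-Hochberg method within each contrast over all tested probe sets, with a threshold of 0.05. Only the contrast of Ept6 with the other 3 lines was tried on simulated data, and the F test and the remaining contrasts were not. Gene names came from the platform annotation, in which 20832 probe sets have 1 symbol, 436 have several and 9831 have none. Chromosomes and promoters came from RefSeq for GRCr8, and motif letters were counted with Python 3.11.15.

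Named genes were all member probe sets and the called genes of the lists. Where a list had no call, up to 3 genes with the lowest F p were named. The genes most like the G2/M mean (5) or each D cyclin (3), and *Mki67*, *Pcna* and *Top2a*, were also named. *Bub1b*, *Mcm6*, *Foxm1*, *Mcm2*, *Aurkb*, *Plk1*, *Tyms* and *Aurka* were named after their values were seen. The members and lists were chosen with earlier results of these data known. Other settings tried were a pseudocount of 1 or 64, quantile or median scaling, other filters, a replicate block, an intensity trend in eBayes, array weights, a covariate from the Gapdh control probe sets (3' minus 5') and the omission of each array. A filter on the mean log2 value and a fit without the Ept2 arrays were added after seeing the data.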

Additional observations from a re-analysis of the deposited data

How the results depend on the processing

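The member differences with an unadjusted p under 0.05 and the called differences of *Birc5* and *Bub1*, recomputed 572 times in all, kept their direction, and the calls did not all hold. These differences were selected by their p on the same arrays, and the settings overlap, so a kept direction adds little support. The F call of *Ccnd2* fell to 0 members without the filter, with the replicate block, with the Gapdh covariate and without the Ept2 arrays, and leaving out 1 array gave 0 to 1. In Ept2 the count was 0 without the filter, with the replicate block and with the Gapdh covariate, and 0 to 1 on leaving out 1 array. In Ept6 it was 0 with a pseudocount of 1, with median centring, without the filter, with the replicate block, with the Gapdh covariate and without the Ept2 arrays, and 0 to 1 on leaving out 1 array. Calls between pairs of lines numbered 2 with median centring, 0 without the filter, 3 with the 60th percentile filter, 3 with the eBayes trend and 0 with the Gapdh covariate, and 1 to 1 on leaving out 1 array. Without the filter 31042 probe sets were tested, so that the adjustment covered more of them; for the other settings the cause was not tested. Over all probe sets the F test called 184, against 53 unfiltered, 296 with the stricter filter, 84 with the replicate block, 419 with the trend, 36 with the covariate, 65 without the Ept2 arrays and 74 to 139 on leaving out 1 array. On leaving out 1 array G2/M minus G1 ranged from 0.0334 to 0.11 in Ept1, -0.23 to -0.13 in Ept2, -0.21 to 0.04 in Ept6 and 0.14 to 0.27 in Ept9. Over all alternatives the G2/M median in Ept6 ran from -0.11 to 0.10, that in Ept1 from -0.003 to 0.09, the G1 median in Ept2 from -0.15 to 0.006 and that in Ept9 from -0.004 to 0.06, so their signs are not settled. Over all tested probe sets, deviations of same-numbered arrays correlated at -0.13 to 0.07, and 0 of 18 pairs exceeded 0.1. Whether replicate numbers pair the arrays in some of the probe sets was not tested. With the replicate block limma gave *Ccnd2* adjusted p of 0.0607 in the F test, 0.0742 in Ept2 and 0.130 in Ept6. The brightness of *Ccne1* and *Cdk2* limits what could be detected in them: with the stricter filter 11 of the 14 member probe sets were tested.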
